A study of Mus musculus with 6 samples.

Results

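The genes described here encode the enzymes that build and cap mucin-type sugar chains, together with close relatives in the same enzyme families, and the sulfotransferases that add sulfate to such chains. They were chosen by name, from the families Galnt, C1galt1, Gcnt, B3gnt, B3galt, B4galt, B4galnt, Fut, St3gal, St6gal, St8sia, Gal3st and Chst together with A4gnt and Abo. A gene was kept where at least 10 counts were found in 3 or more of the 6 libraries. Of 55487 genes in the count files, 104 matched by name, 77 were kept and 27 fell below the count minimum. The 77 members comprised 76 entries of enzyme genes with 75 symbols, since St6galnac2 has 2 identifiers, and 1 antisense transcript, Galnt6os. Just inside the minimum lay St8sia6, with counts of 2, 5 and 9 in controls and 36, 13 and 40 in mutants, and just outside it lay Galnt15, with counts of 2, 7 and 6 in controls and 10, 9 and 16 in mutants. St6galnac1, which makes the sialyl-Tn antigen, was below the minimum, with counts of 0, 1 and 1 in controls and 0, 5 and 6 in mutants. Gal3st4 had no count in any library, which leaves room for 0.124 CPM (3 counts) in the shallowest library, CPM being counts scaled to library size.

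Bulk RNA-seq was made from the polyadenylated RNA of purified colonic crypt cells of C57BL/6 mice aged 4 weeks. All 6 mice carried the genotype M14(f/f), in which both copies of M14, read here as Mettl14, are flanked by loxP sites. The 3 controls carried nothing further, and the 3 mutants were M14(f/f);Villin-Cre, so that Cre is driven by the villin promoter in the epithelium of the gut. The Mettl14 protein binds RNA for Mettl3, and the pair places N6-methyladenosine (m6A) on messenger RNA. Cells without villin activity keep the gene, and since only mutants carried Cre, an effect of Cre cannot be told apart from that of losing Mettl14. The comparison asks which transcripts of these enzymes differ between mutant and control crypts. Neither m6A, enzyme protein nor the sugar chains themselves were measured.

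Mucins such as Muc2, the gel-forming protein of the colon, are covered with sugar chains that begin with N-acetylgalactosamine (GalNAc) on serine or threonine. Galnt enzymes place this first sugar, core enzymes add the next, chain-extending enzymes lengthen the core with galactose and N-acetylglucosamine (GlcNAc), and other enzymes finish the ends with fucose, sialic acid, a further GalNAc or sulfate. The same families also serve glycolipids and proteoglycans, so that a member of a family need not act on mucins. Gut bacteria feed on these chains, and sulfate and sialic acid at their ends are known to slow that breakdown.

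Library totals ran from 24181631 to 35183636 counts. A row of ribosomal RNA took 7.76% to 8.90% of them in controls, and 12.9%, 7.44% and 5.16% in mutants 1 to 3. Correlations of log2 CPM were 0.988 to 0.989 within controls, 0.985 to 0.989 within mutants and 0.940 to 0.952 between the groups. Sex-linked transcripts set 2 mutant libraries apart. Xist, made from the inactive X chromosome of females, was at 1.28, 1.31 and 1.77 CPM in controls 1 to 3 and at 652, 53.1 and 1.504 CPM in mutants 1 to 3, while the Y-linked Ddx3y was at 53.6, 58.4 and 57.2 CPM and at 0.541, 38.0 and 44.2 CPM. Mutant 1 thus had the transcripts of a female and mutant 2 those of both sexes, so results are also given without both where they differ. Mettl14 was at 26.2, 20.9 and 22.0 CPM in controls and at 14.0, 13.8 and 10.5 CPM in mutants, with no overlap and a log2 fold change of -0.85 (SE 0.13 and adjusted p = 6.22e-04 by edgeR with Benjamini-Hochberg adjustment). The 7 epithelial markers summed to 9900 to 11230 CPM in controls and to 7779 to 9396 CPM in mutants, so epithelial transcripts were abundant in all libraries, as labelled. Every mutant sum was lower than every control sum, and of the 7 markers 3 fell and 1 rose.

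The makeup of the crypts, as read from marker genes, also moved with genotype. Of 10 goblet cell markers 6 fell and 1 rose, and their summed level was 21939 to 25783 CPM in controls and at 12947 to 13927 CPM in mutants. Of 10 absorptive colonocyte markers 6 fell, from a sum of 10480 to 11939 CPM to one of 5063 to 6646 CPM. Deep crypt secretory cells had 6 markers, of which 5 fell, with a sum of 1102 to 1767 CPM in controls and of 320.1 to 532 CPM in mutants. Macrophage and dendritic cell markers went the other way, 13 of 14 rising and 1 falling, from a sum of 37.2 to 46.3 CPM to one of 82.1 to 112 CPM. Tuft cell markers fell for 6 of 8 (57.8 to 60.5 CPM in sum, then 25.2 to 29.8 CPM) and fibroblast and muscle markers for 7 of 10 (287 to 328 CPM, then 153 to 178 CPM). Of 5 endothelial markers 2 rose and 1 fell (11.7 to 12.97 CPM, then 19.8 to 22.3 CPM). Stem cell markers fell for 3 of 6 and rose for 1 (168 to 172 CPM, then 118 to 127 CPM). Enteroendocrine markers rose for 3 of 8 and fell for 2 (636 to 773 CPM, then 775 to 934 CPM). Over all tested genes with a mean of at least 5 CPM, 25.9% rose and 30.2% fell. None of these markers was at 0 in all libraries. In bulk RNA, fewer cells of a type and less RNA per cell cannot be told apart, and the part these shifts have in the results below was not tested.

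Enzymes of initiation, core formation, extension, GalNAc capping and sialylation each held genes that rose and genes that fell, and the 5 largest falls were in Gal3st2c, St3gal5, B4galnt2, St6galnac4 and B3gnt7. Across the 77 members, all tested, 28 rose in mutants, 19 fell and 30 did not pass the threshold, an adjusted p of 0.05 in edgeR's quasi-likelihood test with Benjamini-Hochberg adjustment over all 18539 tested genes. The 47 called members were 61.0% of the total, against 46.3% of all tested genes, with 23.5% of all genes higher and 22.8% lower. A member can pass more easily when it is abundant. Among the 59 members with a mean of at least 5 CPM 39 were called (66.1%), against 56.2% of all genes at that level. Changes of at least 2-fold were called for 12 members upward and 7 downward, against 10.5% and 6.05% of all genes. The 12 include members that had to be higher, as given below. The median log2 fold change of members was 0.09, near the 0.01 of all tested genes, and the median size of the change was 0.43 against 0.41.

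A group of 4 members, Chst13, Fut7, St8sia1 and St8sia6, entered the set only through mutant libraries, since no control held 10 counts of them. They had to be higher in mutants, and without them 43 of 73 members were called, 24 higher and 19 lower. Of these 73, 8 were called at least 2-fold higher and 7 at least 2-fold lower. Of the 18 members with a mean under 5 CPM 8 were called, all higher, but these 8 include those 4, and of all genes at that level 20.2% were higher and 12.7% lower. The 31 members of at least 50 CPM held 10 higher and 10 lower (32.3% each), against 21.3% and 36.3% of all genes at that level. For 48 members (62.3%) the ranges of both groups were apart, against 56.9% of all tested genes.

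**Figure D1:**
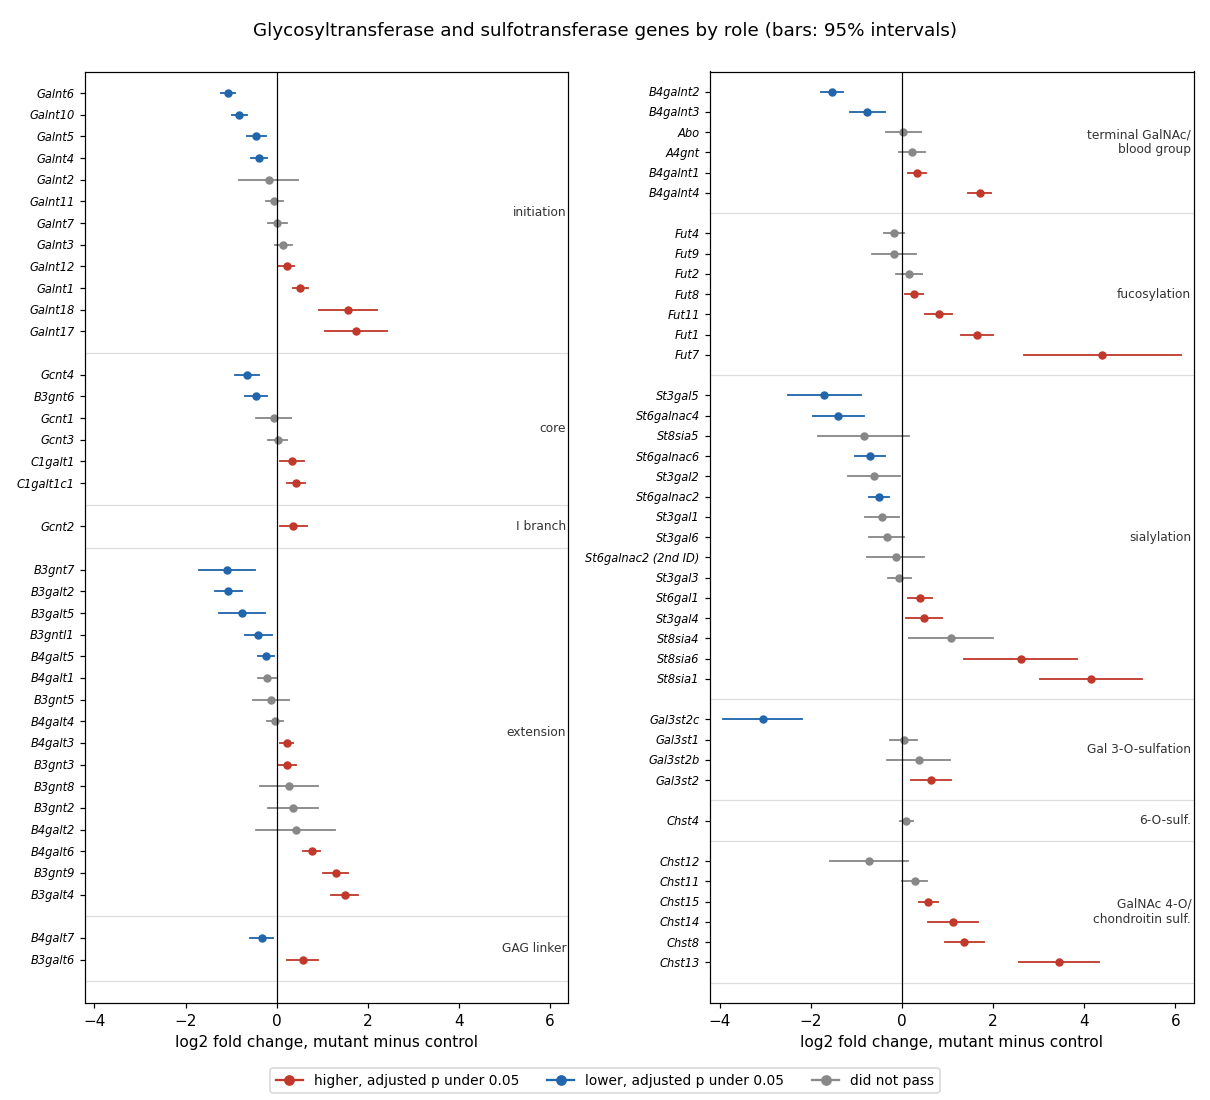
Log2 fold change (mutant minus control, 3 libraries each) of the 76 enzyme gene entries, grouped by role; points are edgeR estimates, bars their 95% intervals, red and blue the 28 higher and 19 lower members past an adjusted p of 0.05, and grey those that did not pass. Gal3st2c lies farthest to the left at -3.06 and Fut7, with almost no counts in controls, farthest to the right at 4.40.

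The largest fall among the members was in a transcript for the sulfation of galactose. Gal3st2c (ENSMUSG00000073608, plus strand, chr1:93990509-94017147 on GRCm38) belongs to a cluster of 3 neighbours on chromosome 1 with Gal3st2 (chr1:93861306-93876494) and Gal3st2b (chr1:93918311-93942650), all on the plus strand. Human GAL3ST2 adds sulfate to the outer galactose of mucin-type chains. Gal3st2c was at 162, 92.4 and 137 CPM in controls and at 26.6, 13.6 and 7.47 CPM in mutants 1 to 3. No mutant came near the lowest control, and in proportion the mutants differed among themselves more than the controls did. Gal3st2c fell with a log2 fold change of -3.06 (SE 0.39 and adjusted p = 1.79e-04 by edgeR), which ran from -3.66 to -2.70 when 1 library was left out and was -4.13 without mutants 1 and 2.

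The promoters of the 3 neighbours are shown because the genes lie side by side and yet moved differently. They are RefSeq sequences of the plus strand on GRCm38.p6, at chr1:93861094-93861393 for Gal3st2, chr1:93918187-93918486 for Gal3st2b and chr1:93990255-93990554 for Gal3st2c. Each covers 250 bases before the start and 50 after it. Capitals mark TTTAT on either strand (ATAAA where it lies on the other strand), a core of the sequence bound by the gut transcription factor Cdx2.
Gal3st2: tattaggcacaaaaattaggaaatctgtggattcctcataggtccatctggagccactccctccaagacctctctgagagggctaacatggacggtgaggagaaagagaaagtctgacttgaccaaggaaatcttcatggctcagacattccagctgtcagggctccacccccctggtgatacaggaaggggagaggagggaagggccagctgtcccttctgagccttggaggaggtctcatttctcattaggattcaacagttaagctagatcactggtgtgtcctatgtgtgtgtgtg
Gal3st2b: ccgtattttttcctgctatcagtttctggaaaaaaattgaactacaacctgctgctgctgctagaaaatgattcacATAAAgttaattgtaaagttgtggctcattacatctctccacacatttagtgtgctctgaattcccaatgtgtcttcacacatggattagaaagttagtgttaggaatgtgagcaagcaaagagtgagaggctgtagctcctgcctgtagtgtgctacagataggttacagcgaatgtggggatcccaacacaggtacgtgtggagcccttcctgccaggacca
Gal3st2c: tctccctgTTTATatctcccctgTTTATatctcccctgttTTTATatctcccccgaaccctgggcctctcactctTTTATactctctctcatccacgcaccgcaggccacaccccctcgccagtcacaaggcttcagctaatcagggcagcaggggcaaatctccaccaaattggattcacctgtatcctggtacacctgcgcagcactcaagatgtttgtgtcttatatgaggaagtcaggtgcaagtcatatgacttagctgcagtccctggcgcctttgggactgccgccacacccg
TTTAT occurred 4 times in the window of Gal3st2c, once in that of Gal3st2b and not at all in that of Gal3st2, counted on both strands. In Gal3st2c all but the last lay in near copies of 1 short stretch, so they are not separate occurrences. The window of B4galnt2, which also fell, held 1. No other motif was searched, so none overlapped. Of 32851 mouse promoters of the same length, 2.92% held at least 4 such matches and 40.01% at least 1. A match is a description of the letters and not a bound site, and a part of Cdx2 in these changes was not tested. Cdx2 itself was at 197, 170.2 and 181 CPM in controls and at 215, 189 and 198 CPM in mutants and did not pass the threshold (adjusted p = 0.203 by edgeR).

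Gal3st2 went the other way from Gal3st2c. It was at 3.99, 6.95 and 6.19 CPM in controls and at 9.20, 9.004 and 8.56 CPM in mutants, all above the controls. Gal3st2 rose with a log2 fold change of 0.64 (SE 0.19 and adjusted p = 0.0214 by edgeR), and without mutants 1 and 2 the adjusted p was 0.144. Gal3st2b stayed below 1.41 CPM in every library and did not pass (0.37, adjusted p = 0.357). Reads shared by near copies are not counted here, and 71.2% of 50-base stretches of Gal3st2 transcripts and 84.4% of those of Gal3st2b also occur in one of the other 2 genes, so the levels of both are uncertain. For Gal3st2c that share was 10.8%.

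Gal3st1, which makes the sulfated glycolipid sulfatide, was at 24.6, 17.5 and 19.2 CPM in controls and at 18.6, 21.7 and 22.8 CPM in mutants. The groups overlapped and it did not pass the threshold, with a log2 fold change of 0.04 (95% interval -0.25 to 0.34, adjusted p = 0.815 by edgeR). Summed over the 4 galactose sulfotransferases, the level in CPM per kb of exon was 25.7 ± 4.89 in controls and 15.3 ± 0.262 in mutants (SD, n = 3 each), and the groups did not overlap. Gal3st2c supplied 52.0% ± 5.01 of that sum in controls and 10.7% ± 6.54 in mutants. Gal3st1 supplied 39.1% ± 2.66 and 67.5% ± 7.54, the largest counted share in mutants. The sum and the shares leave out reads shared by near copies, so the parts of Gal3st2 and Gal3st2b in them are uncertain.

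Transcripts of the other sulfotransferases did not move in that way. Chst4, a sulfotransferase for GlcNAc and the only one of its kind kept, was at 72.6, 69.8 and 71.2 CPM in controls and at 73.7, 77.8 and 76.2 CPM in mutants. Every mutant lay above every control by a small margin, and Chst4 did not pass (log2 fold change 0.09, 95% interval -0.05 to 0.23, adjusted p = 0.260 by edgeR). Of 6 sulfotransferases for GalNAc and chondroitin, 4 rose, none fell and 2 did not pass, where 23.5% of all genes rose. Chst13, one of the 4, passed the count minimum through mutants alone and so had to be higher. Chst8, which sulfates GalNAc on pituitary hormones, was at 2.63, 2.73 and 1.90 CPM in controls and at 6.96, 5.88 and 6.02 CPM in mutants, with no overlap. It rose by a log2 fold change of 1.37 (SE 0.19 and adjusted p = 2.83e-04 by edgeR). Chst15 and Chst14, which act on chondroitin and dermatan chains, rose by 0.58 and 1.12, and Chst13, a chondroitin sulfotransferase, went from counts of 3, 3 and 5 to counts of 29, 37 and 42. Chst11, the most abundant of the role and also a chondroitin enzyme, was at 26.1, 22.3 and 25.0 CPM in controls and at 35.8, 28.1 and 25.7 CPM in mutants, with overlap and no call (0.29, adjusted p = 0.0831). Fibroblast markers, as given above, were lower in the same mutant libraries, and their part was not tested. The summed level of the role was 7.48 ± 0.444 CPM per kb in controls and 10.9 ± 0.970 CPM per kb in mutants, with no overlap.

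Among transcripts for the ends of the chains, that of B4galnt2 also fell. This enzyme adds GalNAc to sialylated chains to make the Sda antigen of the colon. B4galnt2 (ENSMUSG00000013418, minus strand, chr11:95865943-95914891) was at 756, 779 and 738 CPM in controls and at 297, 221 and 265 CPM in mutants. The controls lay close together and every mutant lay far below them. B4galnt2 fell with a log2 fold change of -1.54 (SE 0.11 and adjusted p = 5.79e-06 by edgeR), from -1.64 to -1.43 with 1 library left out. Per length it was the most abundant of all members, at 439.99 ± 11.8 CPM per kb in controls and 152 ± 22.2 CPM per kb in mutants. It supplied 81.7% ± 0.325 of the summed level of its role in controls and 56.5% ± 1.78 in mutants.

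Of the 6 genes for terminal GalNAc, GlcNAc and blood group sugars, 2 rose, 2 fell and 2 did not pass. Over all tested genes 23.5% rose and 22.8% fell. The enzymes that add GalNAc to a terminal GlcNAc, making LacdiNAc, were called in opposite directions. B4galnt3 fell with a log2 fold change of -0.76 (adjusted p = 0.00498 by edgeR). B4galnt4 was at 9.36, 8.37 and 7.55 CPM in controls and at 31.0, 25.3 and 26.4 CPM in mutants, with no overlap. B4galnt4 rose with a log2 fold change of 1.71 (SE 0.12 and adjusted p = 4.27e-06 by edgeR). B4galnt1, which makes the gangliosides GM2 and GD2, rose by 0.33, a call lost without control 2 or mutant 3 (adjusted p of up to 0.0515). A4gnt, best known for capping mucins of gastric glands with GlcNAc, and Abo, the blood group enzyme, did not pass, with A4gnt at 88.4 ± 8.47 CPM in controls and at 103 ± 19.97 CPM in mutants. The summed level of the role was 539 ± 12.4 CPM per kb in controls and 267 ± 31.1 CPM per kb in mutants, a ratio of 0.496.

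**Figure D2:**
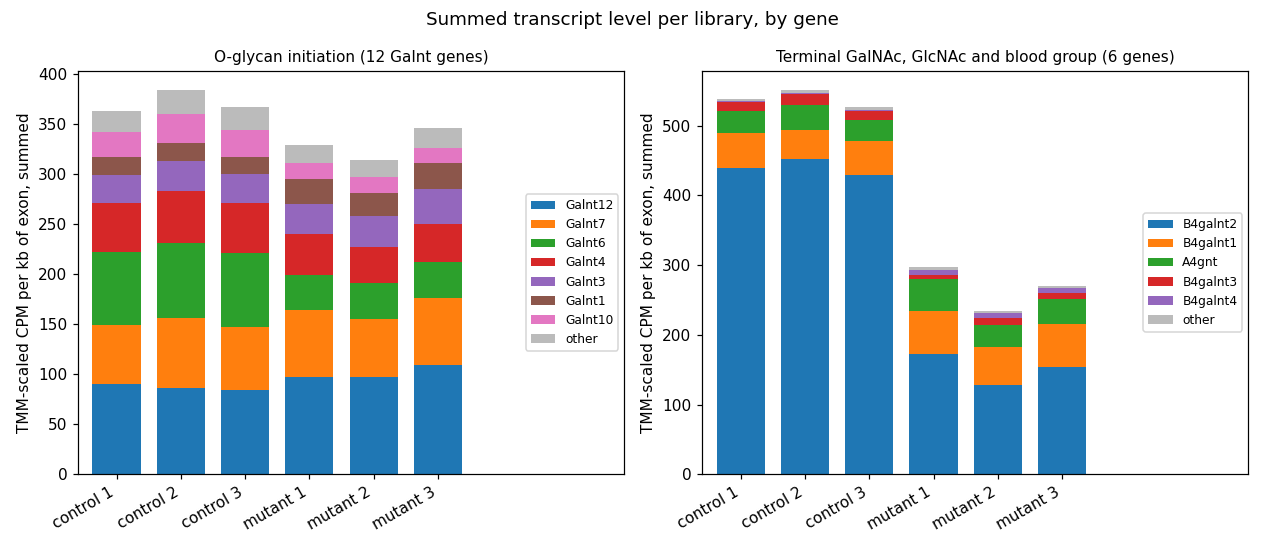
Summed TMM-scaled CPM per kb of exon in each of the 6 libraries for the 12 Galnt genes that begin the chains (left) and the 6 genes for terminal GalNAc, GlcNAc and blood group sugars (right); each colour is 1 gene, and genes of small share are summed as other. On the left the Galnt6 segment is smaller in every mutant while the total moves little, from 371 to 329 on average, and on the right the B4galnt2 segment and the total are both smaller.

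At the start of the chains the 12 Galnt genes changed more in proportion than in sum. Of these 12, 4 rose, 4 fell and 4 did not pass, where 23.5% of all genes rose and 22.8% fell. The summed level of the 12 was 371 ± 11.02 CPM per kb in controls and 329 ± 15.9 CPM per kb in mutants (ratio 0.888, no overlap). Galnt6 (minus strand, chr15:100691813-100729376) was at 281, 291 and 287 CPM in controls and at 136, 138 and 136 CPM in mutants. Within each group the libraries were nearly equal, and every mutant lay far below every control. Galnt6 fell with a log2 fold change of -1.07 (SE 0.066 and adjusted p = 2.59e-06 by edgeR) and supplied 19.9% ± 0.315 of the summed level in controls and 10.7% ± 0.570 in mutants.

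Galnt10, which prefers peptides that already bear GalNAc, fell by 0.82 on the log2 scale (adjusted p = 2.70e-05 by edgeR), and Galnt5 and Galnt4 fell by 0.45 and 0.39. Galnt1, active in most tissues, rose by 0.52 (adjusted p = 3.43e-04). The lowly expressed Galnt17 and Galnt18 rose by 1.74 and 1.57. Galnt12, the most abundant per length, was at 207, 198 and 193 CPM in controls and at 222, 222 and 251 CPM in mutants. The groups did not overlap, but the call was marginal (log2 fold change 0.21, SE 0.078, adjusted p = 0.0460 by edgeR) and was lost in 5 of the 6 fits that left out 1 library, with an adjusted p of up to 0.162. Galnt7, at 333 ± 27.9 CPM in controls and at 336 ± 25.4 CPM in mutants, and Galnt3, at 126 ± 4.93 and 139.7 ± 12.1 CPM, did not pass. Galnt12 supplied 23.5% ± 1.27 of the summed level in controls and 30.7% ± 1.103 in mutants. Galnt6os, antisense to Galnt6 and below 0.75 CPM throughout, did not pass, and the counting used strand.

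Core enzymes held 2 genes that rose, 2 that fell and 2 that did not pass, where 23.5% of all genes rose and 22.8% fell. C1galt1, which makes core 1, and C1galt1c1, the Cosmc chaperone that C1galt1 needs to fold, both rose. C1galt1 was at 328, 434 and 365 CPM in controls and at 465, 431 and 533 CPM in mutants, so the groups overlapped by a narrow margin (log2 fold change 0.34, SE 0.12, adjusted p = 0.0373 by edgeR). This call was lost in 3 of 6 fits without 1 library (without control 1, control 3 or mutant 3), with an adjusted p of up to 0.132. C1galt1c1 was at 83.5, 76.5 and 86.7 CPM in controls and at 106, 103 and 121 CPM in mutants, without overlap (0.42, SE 0.085, adjusted p = 0.00283 by edgeR). The competing enzyme for the same first sugar is B3gnt6, which makes core 3, the core typical of colonic mucin. B3gnt6 was at 46.2, 51.5 and 45.5 CPM in controls and at 41.0, 31.4 and 32.5 CPM in mutants, all below the controls, and fell with a log2 fold change of -0.45 (SE 0.106 and adjusted p = 0.00658 by edgeR). C1galt1 and C1galt1c1 were described in full together with B3gnt6 because they act on the same sugar, a choice made after their values were seen.

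Branching of the cores is the work of the Gcnt enzymes. Gcnt3, which makes core 2 and core 4 branches on mucins, was the most abundant core enzyme per length, with levels of 480.2, 488 and 436 CPM in controls and at 527, 437 and 463 CPM in mutants. The groups overlapped and it did not pass (log2 fold change 0.02, 95% interval -0.19 to 0.23, adjusted p = 0.864 by edgeR). Gcnt4, a core 2 enzyme of low level, fell by 0.65 (adjusted p = 0.00169), and Gcnt1, also a core 2 enzyme, did not pass. Gcnt2, which puts the I branch on extended chains, was at 17.8, 21.8 and 22.3 CPM in controls and at 21.6, 30.3 and 27.6 CPM in mutants. Its groups overlapped, and the call (0.36, adjusted p = 0.0491 by edgeR) was lost in 5 of 6 fits without 1 library. The core enzymes summed to 255 ± 11.1 CPM per kb in controls and 286 ± 18.9 CPM per kb in mutants, with overlap.

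Among 16 genes of chain extension 5 rose, 5 fell and 6 did not pass, where 23.5% of all genes rose and 22.8% fell. The larger falls were in B3gnt7, B3galt2 and B3galt5. B3gnt7, which lengthens sulfated chains with GlcNAc, was at 152, 167 and 171 CPM in controls and at 46.0, 120.5 and 63.5 CPM in mutants 1 to 3. Every mutant lay below the controls, but mutant 2 stood well above the other two, and B3gnt7 fell with a log2 fold change of -1.09 (SE 0.28 and adjusted p = 0.00943 by edgeR). The fitted change ran from -1.58 without mutant 2 to -0.83 without mutant 1. B3galt2, a galactosyltransferase for terminal GlcNAc, was at 34.2, 49.0 and 37.9 CPM in controls and at 18.0, 21.1 and 18.8 CPM in mutants, without overlap (-1.07, SE 0.13, adjusted p = 1.46e-04 by edgeR).

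B3galt5, which makes the type 1 chains that carry Lewis antigens in the gut, was at 312, 644 and 451 CPM in controls and at 226, 313 and 294 CPM in mutants. Control 1 lay just below mutant 2 and control 2 far above all others. B3galt5 fell with a log2 fold change of -0.75 (SE 0.23 and adjusted p = 0.0210 by edgeR), a call lost without control 2 (adjusted p = 0.0688), without mutant 1 (0.0612) and without mutants 1 and 2 (0.147). B3gntl1 and B4galt5, the latter a lactosylceramide synthase, fell by 0.40 and 0.23, calls that were lost in 5 and 3 of 6 fits without 1 library.

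The larger rises among the extending enzymes were in genes of low level in controls. B3galt4, which makes the ganglioside GM1, was at 10.02, 9.65 and 9.20 CPM in controls and at 26.1, 22.6 and 32.1 CPM in mutants. The groups lay far apart, and B3galt4 rose with a log2 fold change of 1.49 (SE 0.13 and adjusted p = 1.82e-05 by edgeR). B3gnt9 was at 9.10, 11.3 and 8.87 CPM in controls and at 24.3, 21.5 and 26.0 CPM in mutants, again without overlap (1.29, SE 0.12, adjusted p = 2.84e-05). B4galt6, a second lactosylceramide synthase, rose by 0.77, and B3gnt3, which extends core 1, and B4galt3 rose by 0.23 and 0.22, each call being lost in 4 of 6 fits without 1 library. B4galt1, at 108 ± 2.33 CPM in controls and at 93.9 ± 11.2 CPM in mutants, and B4galt4, at 101 ± 1.56 and 98.9 ± 9.07 CPM, did not pass, nor did B3gnt5, the enzyme that starts lacto-series glycolipids, at 45.1 ± 4.97 and 41.2 ± 11.46 CPM. The role summed to 283 ± 27.3 CPM per kb in controls and 253 ± 21.1 CPM per kb in mutants, with overlap.

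**Figure D3:**
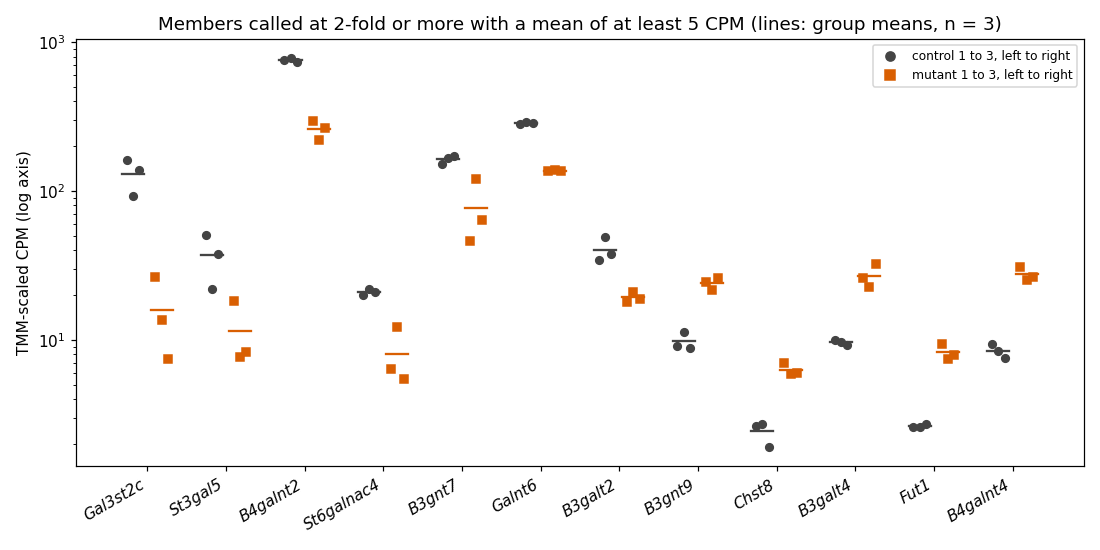
TMM-scaled CPM (log axis) in each library for the 12 members called at 2-fold or more with a mean of at least 5 CPM in 1 group, ordered by log2 fold change; circles are controls 1 to 3, squares mutants 1 to 3, from left to right, and lines are group means. The groups do not overlap for any of the 12, the Galnt6 mutants lie almost on 1 level (136 to 138 CPM), and the Gal3st2c mutants spread from 7.47 to 26.6 CPM.

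The proteoglycan linker enzymes, caught by the name rule but acting on another kind of chain, went in opposite directions. B4galt7, the first galactosyltransferase of the linker, was at 10.4, 11.6 and 11.7 CPM in controls and at 8.35, 8.68 and 9.68 CPM in mutants. The groups did not overlap, and the fall (-0.33, adjusted p = 0.0393 by edgeR) was lost in 4 of 6 fits without 1 library. B3galt6, which adds the next galactose, rose by 0.57 (adjusted p = 0.0118, and 0.0509 without control 3).

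Of 7 fucosyltransferases 4 rose, none fell and 3 did not pass, where 23.5% of all genes rose and 22.8% fell. One of the 4, Fut7, passed the count minimum through mutants alone and so had to be higher. Fut1 and Fut2, which make the H antigen, lie 27531 bases apart on chromosome 7 and were called differently. Fut2, the main H enzyme of the gut surface, was at 215, 321 and 261 CPM in controls and at 301, 286 and 296 CPM in mutants, inside the range of the controls, and did not pass (0.15, 95% interval -0.14 to 0.43, adjusted p = 0.368 by edgeR). Without control 2 the Fut2 change was 0.31 and passed (adjusted p = 0.0407). Fut1 was at 2.596, 2.58 and 2.71 CPM in controls and at 9.35, 7.40 and 7.96 CPM in mutants. The controls were nearly equal and all mutants far above them, a rise of 1.65 (SE 0.16, adjusted p = 3.22e-05 by edgeR).

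Fut8, which adds the core fucose of N-glycans, rose by 0.27, a call lost in 4 of 6 fits without 1 library (adjusted p of up to 0.119), and Fut11 rose by 0.81. Fut4 and Fut9, which make Lewis X, did not pass, with Fut4 at 95.2 ± 12.3 CPM in controls and at 84.2 ± 4.001 CPM in mutants. Fut7, which makes the selectin ligand sialyl Lewis X in leukocytes, had counts of 4, 0 and 0 in controls and of 22, 34 and 22 in mutants. Since Fut7 had to be higher, its adjusted p (0.00126 by edgeR) carries no weight. Its fitted fold depends on the prior count and is not a bound. Macrophage and dendritic cell markers rose in the same libraries, as given above, while T and B lymphocyte markers summed to 11.8 to 14.97 CPM in controls and at 14.7 to 21.1 CPM in mutants. The part of such cells in the Fut7 counts was not tested. The summed level of the role was 96.4 ± 14.6 CPM per kb in controls and 107 ± 1.048 CPM per kb in mutants, with overlap, and Fut2 made up 50.5% ± 2.82 and 50.6% ± 1.076 of it.

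The 15 sialyltransferase entries held 4 that rose, 4 that fell and 7 that did not pass. Over all tested genes 23.5% rose and 22.8% fell. St8sia1 and St8sia6, among the 4 that rose, passed the count minimum through mutants alone and so had to be higher. St3gal5, which makes GM3, the first of the gangliosides, was at 50.8, 22.0 and 37.8 CPM in controls and at 18.2, 7.64 and 8.29 CPM in mutants. Both groups were spread widely and mutant 1 lay close under control 2, yet no values crossed, and St3gal5 fell with a log2 fold change of -1.70 (SE 0.36 and adjusted p = 0.00351 by edgeR). Of the enzymes that build on GM3, B4galnt1 rose by 0.33 and B3galt4 by 1.49, as above, and St8sia5 did not pass (-0.84, adjusted p = 0.149). St8sia1, which makes GD3 from GM3, had counts of 6, 5 and 4 in controls and 31, 94 and 118 in mutants. St8sia1 rose with a log2 fold change of 4.15 (SE 0.497 and adjusted p = 1.27e-04 by edgeR), a p-value that carries no weight since it had to be higher. In mutants St8sia1 reached no more than 3.76 CPM.

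A pair of sialyltransferases that act on GalNAc, St6galnac4 and St6galnac6, lie on the plus strand of chromosome 2 with 10 bases between them, and both fell. St6galnac4, which makes the disialylated core 1, was at 19.9, 21.9 and 20.9 CPM in controls and at 6.38, 12.2 and 5.47 CPM in mutants 1 to 3. All mutants lay below the controls, mutant 2 least so, and St6galnac4 fell with a log2 fold change of -1.39 (SE 0.25 and adjusted p = 0.00134 by edgeR). St6galnac6, which acts on glycolipids and on disialyl Lewis a, was the most abundant sialyltransferase at 415, 416 and 409 CPM in controls and at 192, 310.5 and 267 CPM in mutants. Again mutant 2 was the highest mutant and lay below the controls, and St6galnac6 fell with a log2 fold change of -0.69 (SE 0.15 and adjusted p = 0.00378 by edgeR). Because the genes nearly touch on 1 strand, reads that run past the end of St6galnac4 could be counted to St6galnac6. How many did so was not tested. Mean levels were 20.9 CPM for St6galnac4 in controls, and 414 CPM in controls and 256 CPM in mutants for St6galnac6.

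St6galnac2, at the longer of its 2 overlapping identifiers (ENSMUSG00000057286), fell by 0.50 (adjusted p = 0.00244 by edgeR), and the other identifier (ENSMUSG00000110170) did not pass. Reads on both are not counted, so the level of St6galnac2 is uncertain. St6gal1, which caps N-glycans, rose by 0.40 (adjusted p = 0.0183, and 0.0598 without control 3). St3gal4, which caps outer galactose, was at 138, 96.1 and 112 CPM in controls and at 118, 182 and 186 CPM in mutants, with overlap, and rose by 0.49 (adjusted p = 0.0467 by edgeR), a call lost in 4 of 6 fits without 1 library. St8sia6, near the count minimum, rose from 0.165 ± 0.118 to 1.00 ± 0.443 CPM. Of the other sialyltransferases St3gal6, at 80.4 ± 8.14 CPM in controls and at 63.8 ± 17.9 CPM in mutants, St3gal3, at 59.5 ± 1.497 and 57.3 ± 9.58 CPM, and St3gal1, which caps core 1, at 42.2 ± 8.48 and 31.2 ± 6.22 CPM, did not pass. The share of St6galnac6 in the summed level of the role was 40.3% ± 1.86 in controls and 28.9% ± 2.41 in mutants, and that of St3gal4 was 18.4% ± 2.57 and 30.1% ± 2.87.

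Mutants 1 to 3 lay farthest from the controls, on a log2 scale, for 16, 13 and 18 of the 47 called members, a nearly even split. Of the 19 members that fell, mutants 1 to 3 were the lowest mutant for 8, 6 and 5 and the highest for 5, 11 and 3. Of the 28 that rose, they were the highest mutant for 8, 7 and 13 and the lowest for 9, 14 and 5. These counts have no share of all genes beside them. Over the 59 members with a mean of at least 5 CPM, the median coefficient of variation was 9.09% in controls and 9.79% in mutants, against 6.44% and 7.56% over all tested genes at that level. Without mutants 1 and 2, 38 of the 47 called members were still called, in a fit in which the lone mutant is assumed to vary like the controls, and none changed sign. The 9 lost there were Gal3st2, B4galt3, Galnt5, Chst14, B3galt6, Gcnt2, B4galt7, St6gal1 and B3galt5, and Galnt3 gained a call (0.28, adjusted p = 0.0417 by edgeR).

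**Figure D4:**
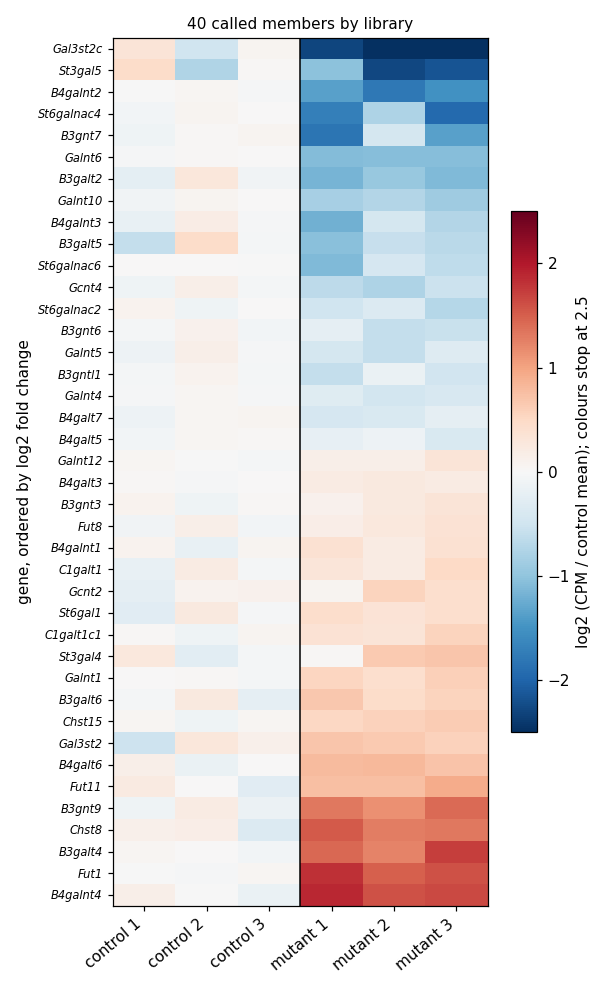
Log2 ratio of the CPM in each library to the control mean for the 40 called members with a mean of at least 5 CPM in 1 group, ordered by log2 fold change from lower (blue) to higher (red); colours stop at 2.5 on either side. The mutant columns carry 1 colour in most lines, while B3gnt7, St6galnac4 and St6galnac6 are paler in mutant 2 and St3gal4 is near the control mean in mutant 1.

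The enzymes draw on sugar nucleotides and on the sulfate donor PAPS, and genes that supply these donors were also called. Of a list of 30 such genes 29 were tested, of which 2 rose (6.90%), 11 fell (37.9%) and 16 did not pass. Their median change was -0.11 (log2). Over all tested genes 23.5% rose and 22.8% fell, with a median of 0.01, and over genes of at least 50 CPM, the level of many donor genes, 21.3% rose and 36.3% fell, with a median of -0.105. The share of donor genes that fell was thus near that of abundant genes. Papss2, which makes PAPS, was at 992, 814 and 911 CPM in controls and at 310.2, 300.3 and 246 CPM in mutants. No mutant came near the controls, and Papss2 fell with a log2 fold change of -1.67 (SE 0.11 and adjusted p = 4.62e-06 by edgeR). Its relative Papss1 did not pass (0.01), while Slc26a2, a sulfate importer, fell by 0.42. Slc35b2, which carries PAPS into the Golgi, was at 35.9, 39.1 and 33.7 CPM in controls and at 66.4, 64.3 and 82.8 CPM in mutants, all higher (0.98, adjusted p = 7.00e-05 by edgeR).

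Ugp2, which makes UDP-glucose, was at 302, 280.4 and 258 CPM in controls and at 141, 150.3 and 142 CPM in mutants, without overlap (-0.95, adjusted p = 1.56e-05 by edgeR). Gfpt1, the first and rate-limiting enzyme towards UDP-GlcNAc, was at 1424, 1785 and 1569 CPM in controls and at 1001, 944 and 878 CPM in mutants. All mutants were lower, and Gfpt1 fell with a log2 fold change of -0.76 (adjusted p = 3.17e-04 by edgeR). Slc35d1, a carrier of sugar nucleotides, fell from 133 ± 11.7 to 73.3 ± 11.3 CPM (-0.86, adjusted p = 2.71e-04), and Gne, which begins the synthesis of sialic acid, fell by 0.39. Fpgt, which salvages fucose, rose from 32.2 ± 1.83 to 47.5 ± 6.12 CPM (0.57, adjusted p = 0.00115). Slc35a2, which carries UDP-galactose into the Golgi, was at 63.9 ± 1.018 and 71.3 ± 5.68 CPM and Galk1, a galactokinase, at 24.9 ± 1.696 and 27.97 ± 2.87 CPM in controls and mutants, and neither passed. Muc2, the main protein to carry these chains, was at 10853, 16197 and 15200 CPM in controls and at 7227, 6223 and 5438 CPM in mutants, all lower (-1.16, adjusted p = 5.13e-04). Of 16 genes for enzymes that cut sugars and sulfate from the chains, 4 rose and 3 fell. These were 25% and 18.75%, near the 23.5% and 22.8% of all genes. Galns, a lysosomal sulfatase, was among those that rose (0.60, adjusted p = 3.47e-04).

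Mettl14 acts at short RNA motifs of which GGACT is a typical form. In the longest coding transcript of each gene (GENCODE vM21), the median density of GGACT was 1.201 per kb in the 28 members that rose, 1.27 in the 19 that fell and 1.09 in the 29 that did not pass. Over all tested coding genes it was 1.12, 1.00 and 1.05 per kb. Of members that fell, B4galnt2 held 1 GGACT, Galnt6 held 4 and Gal3st2c held 13 in a transcript of 9667 bases, while B4galnt4, which rose, held 11. These counts describe sequence only, and methylation at any of them was not measured.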

How the data were processed

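RNA was measured in 6 libraries, 3 control and 3 mutant, from 3 pairs of mice per the series' design text. The p-values cover the spread between these samples. The deposited files hold raw counts per gene, per the file headers made with featureCounts 1.6.4 against GENCODE vM25 on the strand of read 1, with no option to count reads on several genes or with several alignments. Trimming with Trim Galore 0.6.5 and alignment with STAR 2.6.1d to GRCm38 are named in the submitters' processing notes. Groups came from the genotype labels.

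Counts were fitted in R 4.3.3 with edgeR 4.0.16 (quasi-likelihood F test, 2-sided, genotype only) with TMM scaling, on the 18539 genes that filterByExpr kept at its count minimum of 10 (total 15). Benjamini-Hochberg adjustment ran over these genes, and 0.05 was the threshold. CPM are TMM-scaled, CPM per kb use the exon length in the files, and intervals are 95%. A count of 0 allows 0.0853 to 0.124 CPM (3 counts), for counting error only. The fit was tested on simulated data in which far fewer genes changed than were called here. Its behaviour under so wide a shift was not tested. Alternatives were other scalings and filters, DESeq2 1.42.0, limma 3.58.1 (voom), a null of 1.5-fold, an adjusted p of 0.01, leaving out libraries or the 20 most abundant genes, and a replicate block. The fit without mutants 1 and 2 was chosen after sex-linked values were seen.

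Members and lists were chosen with earlier results of these data known. Values per library are given for called members with a mean of at least 5 CPM in 1 group and a log2 change of at least 1, and for the most abundant member of each role. Other called members are named with their change. The 4 donor genes of smallest p in each direction are named, and of the 2 that the rule takes from the glycosidase list 1 is not reported here. C1galt1, C1galt1c1, B3gnt6, Gal3st2, Gal3st2b, St3gal4, Cdx2, Muc2, Papss1, Slc26a2 and Gne were singled out after their values were seen, as were the members near the count minimum. Promoters came from RefSeq, in which 57 member enzymes had an entry.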

Additional observations from a re-analysis of the deposited data

How the results depend on the processing

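Under the scalings, filters and tools tried, no called member changed sign, and 43 to 47 of the 47 calls were kept. Against a null of 1.5-fold, 12 members were higher and 7 lower (14.8% of all genes were called), all genes counted 1720 higher and 1027 lower, and donor genes 1 and 3. Without the members that passed the count minimum through mutants alone, 15 of 73 were called there. With a threshold of 0.01, 17 members were higher, among them Chst13, Fut7, St8sia1 and St8sia6, which had to be higher. Of the members called lower at 0.05, all but B4galt5, B3gntl1, B4galt7 and B3galt5 stayed under 0.01. Leaving out 1 library kept 35 (without control 3) to 44 (without mutant 1) of the calls, with 20 to 28 members higher and 16 to 20 lower. Among members that were never called, Gal3st1 ran from -0.057 (without control 2) to 0.20 without 1 library, and was -0.019 without mutant 3, and Gcnt3 ran from -0.058 (without mutant 1) to 0.081, and was -0.026 without control 3. Gcnt3 was -0.012 with no filter and -0.017 without mutants 1 and 2. With no filter on low counts the median of all genes shifted by 0.18 (log2), and the cause of single lost calls was not tested. After removal of the group means, same-numbered libraries of the groups had correlations of -0.12, -0.065 and -0.14. Libraries with different numbers had correlations of -0.014 to 0.13. Replicate numbers thus gave no sign of pairing. Deviations from the mean of so few libraries are tied to each other, so these values cannot decide whether the mice were paired. With a replicate block, 22 members were higher and 19 lower, and 39 of the 47 calls were kept. The counts at 0.01, without 1 library and with a replicate block have no share of all genes beside them. They thus cannot set the members apart from other genes. Depth limits members near the floor, such as Fut7, St8sia6 and Chst13.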
